A study of Rattus norvegicus with 6 samples.

Results

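The 3′-trimmed forms of abundant small RNAs were counted in the liver of 3 rats with non-alcoholic fatty liver disease (NAFLD) and 3 normal rats. A tag is a distinct read sequence with its number of reads. The parents were the 50 tags of 21 to 24 nt that had the highest mean TPM over the 6 libraries, where TPM is the reads of a tag per 1000000 clean reads of the library. Tags with the first 18 bases of the most abundant tag, miR-122-5p, were left out, and of tags with the same first 18 bases the most abundant was kept. The trimmed forms were each parent minus 1, 2 or 3 bases at its 3′ end, which gave 150 sequences among 1528721 different tags. Of these, 147 were read at least once and 115 in every library. The parents were thus chosen by their mean TPM, which is given here only as a description, and a trimmed form of 21 nt or longer could not exceed its parent in mean TPM. The parent at rank 50 had a mean of 180.6 TPM, and the tag at rank 51 just outside the choice had 179.9 TPM.

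All animals were male Wistar rats of 1 study of 24 rats, and each library came from 1 liver. NAFLD was induced by a fast of 48 h and then 7 days of a diet with 80% starch, while the normal rats received a standard diet with 35% starch. High liver triglyceride guided the choice of the NAFLD livers, while the normal ones were drawn at random. The labels give an age of 4 months and the methods 28 weeks. The libraries are called NAFLD 1 to 3 and normal 1 to 3, and values are listed in that order throughout.

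A mature microRNA (miRNA) is cut from its hairpin precursor by Drosha and Dicer and is then held by an Argonaute protein. Its 5′ end, which carries the seed that pairs with target mRNAs, is usually fixed, whereas its 3′ end varies because both enzymes can cut at neighbouring positions, exonucleases remove bases and terminal transferases add them. The resulting 3′ variants of 1 miRNA share a seed and are called isomiRs. In hepatocytes miR-122-5p makes up much of the miRNA, with let-7 and miR-192 also abundant.

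Of the 50 parents, 25 matched a mature rat miRNA of RefSeq (assembly GRCr8), 23 of them with the same first base and 2 with a start shifted by 1 base. Another 11 differed by 1 or 2 substitutions from a parent or top tag at least 5 times as abundant. The remaining 14 matched neither and are called by their rank, which does not show that they are no known miRNAs. The parents on which the results turn are printed 5′ to 3′ in the DNA letters of the tag tables, and the 3 capitals at the end are the bases that the trimmed forms lack. The first set shows let-7 parents that end in GTT or TTT.
let-7f-5p: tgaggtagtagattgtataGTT
let-7a-5p: tgaggtagtaggttgtataGTT
let-7b-5p: tgaggtagtaggttgtgtggTTT
let-7i-5p: tgaggtagtagtttgtgctgTTT
The next set holds the miRNA parents with the highest trimming, with the lowest, or with libraries of the 2 groups that did not overlap.
miR-192-5p: ctgacctatgaattgacagCCA
miR-192-5p, shifted start: tgacctatgaattgacagccAGT
miR-101b-3p: tacagtactgtgatagctgAAG
miR-21-5p: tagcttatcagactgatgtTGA
miR-140-3p: taccacagggtagaaccacgGAC
miR-103-3p/miR-107-3p: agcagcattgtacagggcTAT
miR-25-3p: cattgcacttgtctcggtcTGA
miR-24-3p: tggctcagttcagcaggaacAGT
miR-132-3p: taacagtctacagccatggTCG
The third set holds parents without a RefSeq miRNA name.
parent 7: cgcgacctcagatcagacGTG
parent 27: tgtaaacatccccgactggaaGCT
parent 31: tacgcctgtctgagcgtcGCT
parent 34: gcccggatagctcagtcgGTA
parent 42: ggggatgtagctcagtggtaGAG
parent 50: ttcgtaaccgggcggaaacaCCA
The last set shows the top tag, and 1 of the substitution forms that entered the parents beside it.
miR-122-5p: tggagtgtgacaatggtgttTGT
miR-122-5p with G3T: tgtagtgtgacaatggtgttTGT
Substitutions are written with the base of the more abundant sequence, its position counted from 1 at the 5′ end, and the base of the form.

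In the RefSeq annotation of GRCr8, the mature let-7b-5p lies in the hairpin gene Mirlet7b at chr7:118684044-118684065 on the plus strand, and miR-192-5p lies in Mir192 at chr1:212994232-212994252 on the plus strand. The mature miR-101b-3p lies in Mir101-2 at chr1:236273982-236274002 on the plus strand, miR-25-3p in Mir25 at chr12:22156652-22156673 on the minus strand, and miR-132-3p in Mir132 at chr10:60522091-60522112 on the plus strand. The parent shared by miR-103-3p and miR-107-3p could come from Mir103a2 at chr3:138963278-138963300 or from Mir107 at chr1:241750431-241750453 on the minus strand. The deposited tags carry no genome positions, so these are the places of the annotated miRNAs and not of aligned reads.

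The libraries held 11601058 to 11880695 clean reads. Tags that begin with the first 18 bases of miR-122-5p, the hepatocyte miRNA, reached 445063 to 465119 TPM in the NAFLD libraries and 560716 to 595583 TPM in the normal ones, without overlap. The other hepatocyte markers, miR-192-5p, miR-194-5p and miR-148a-3p, overlapped between the groups. miR-199a-3p, a stellate cell and fibroblast marker, stood at 400 to 439 TPM in NAFLD against 210 to 384 TPM in normal liver, without overlap. The other smooth muscle and fibroblast markers overlapped. miR-143-3p stood at 122 to 203 TPM in NAFLD and 117 to 193 TPM in normal liver. miR-145-5p stood at 6.89 to 21.8 and 11.4 to 84.6 TPM, and miR-214-3p at 3.23 to 5.69 and 1.94 to 4.30 TPM. Endothelial miR-126a-3p stayed at 2.47 to 4.39 TPM and the myeloid miR-223-3p at 1.01 to 3.03 TPM. Tags 1 substitution away from the top tag within its first 18 bases were counted as a percent of the reads of that tag. They stood at 4.00 to 4.71% in NAFLD 2, NAFLD 3 and normal 2, and at 0.771 to 0.910% in the other libraries. Tags with 2 substitutions were not in this count. Reads of 18 to 20 nt, the length of many trimmed forms, made up 8.16, 5.74 and 4.56% of clean reads in NAFLD against 5.10, 1.86 and 2.64% in normal liver. Inserts under 18 nt, removed by the authors, made up 1.85, 0.483 and 0.427% of the reads of high quality in NAFLD against 0.451, 0.0706 and 0.0839% in normal liver. The part of these differences, those of the markers included, in the trimming values was not tested. In whole liver, fewer cells of a type and less RNA per cell cannot be told apart.

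The trimming of a parent is given as the trimmed percent, the reads of its 3 trimmed forms together per 100 reads of the parent in the same library, so that it exceeds 100 where the trimmed forms outnumber the parent. A percent was computed only from at least 10 parent reads in a library, which 44 parents reached in all 6 libraries. The mean trimmed percent of a parent ranged from 0.0113 to 158, with a median of 27.3. Trimmed forms outnumbered the parent for 16 parents, 8 of which were no substitution forms, and stayed under 5% of it for 6. By mean percent over the libraries, loss of 1 base was the most frequent step for 43 of the 50 parents, loss of 2 bases for 6 and loss of 3 bases for 1.

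The let-7 miRNAs, which repress growth and cell cycle genes and share 1 seed, gave 7 parents, and their trimming fell into a low and a high set according to where the parent ended. Trimmed forms of let-7f-5p, the most abundant parent, stood at 10.03, 10.03 and 10.2% in NAFLD against 10.9, 7.48 and 11.1% in normal liver. Those of let-7a-5p stood at 10.5, 10.7 and 11.0% and at 11.3, 8.03 and 11.3%. In both miRNAs the NAFLD libraries lay close together, while normal 2 was below and the other normal libraries above all of them. let-7g-5p averaged 9.19%, let-7d-5p 8.84% and let-7e-5p 24.7%, and in each of them normal 2 was again the lowest library and normal 1 or normal 3 the highest.

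let-7b-5p and let-7i-5p had parents of 23 nt that ended in TTT, 1 base past the annotated mature end, and had far higher trimmed percents. Trimmed forms of let-7b-5p stood at 97.4, 99.8 and 99.2% in NAFLD against 88.4, 86.7 and 97.0% in normal liver. Those of let-7i-5p stood at 115, 115 and 109% and at 119, 109 and 110%. Most of these reads were of the form lacking 1 T, at 85.5% of the parent on average for let-7b-5p and 85.2% for let-7i-5p. This form is the annotated mature sequence. Whether its reads had lost a T or had never carried it cannot be told from the counts. The last T of the let-7i-5p parent did not match the base that follows in its RefSeq hairpin, and the same held for the last T of the miR-24-3p parent. For let-7b-5p this match was not determined. The let-7b-5p groups did not overlap, whereas those of let-7i-5p did.

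A similar division, with exceptions, was seen across the 23 named parents with the annotated 5′ end. The 10 that ended 1 or 2 bases past the annotated 3′ end had a median trimmed percent of 99.7, within a range of 10.5 to 113. The 13 that ended at it or before it had a median of 9.19, from 0.0113 to 77.9. The exception at the top of the second set was miR-21-5p, and the other 12 of the 13 stayed under 30%. In the first set, 6 of the 10 exceeded 90%. miR-26b-5p at 10.5%, miR-194-5p at 18.5%, miR-191a-5p at 39.4% and miR-24-3p at 43.6% were lower although they ended 1 base past the annotated end. This comparison is a description, since by rule the parent is the most abundant of the tags of 21 to 24 nt with its first 18 bases.

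By family, the 2 miR-26 parents had 8.94% for miR-26a-5p and 10.5% for miR-26b-5p. miR-29a-3p, which represses collagen genes, had 8.87, 10.3 and 9.89% in NAFLD against 10.6, 8.16 and 8.39% in normal liver, and the groups overlapped. miR-10a-5p, encoded in a Hox cluster, had a mean of 4.96% and miR-423-5p 7.26%. miR-378a-3p, from an intron of Ppargc1b, had 106%. No parent matched a mature form of miR-30, miR-148, miR-143, miR-126 or miR-22 in the RefSeq set used. The parents without a match were not placed in families, so the lack of a match does not show that a family is absent. By length, the median trimmed percent of parents without the substitution forms was 8.26 for the 5 of 21 nt, 10.5 for the 19 of 22 nt, 35.7 for the 12 of 23 nt and 34.99 for the 3 of 24 nt.

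Parents of 1 miRNA that start 1 base apart differed in their trimming, but they also differed in where they ended. The miR-192-5p parents with annotated and shifted start ended 1 and 3 bases past the annotated 3′ end. Those of miR-140-3p ended 2 bases and 1 base past it, in the same order. The parts of start and end in the values were not tested. miR-192-5p, a miRNA made in liver and kidney, had trimmed forms at 101, 109 and 108% in NAFLD against 128, 112 and 106% in normal liver, mostly from the loss of 1 A. The parent that starts 1 base further in and ends in AGT had 71.4, 68.1 and 57.7% and 72.2, 53.9 and 69.5%, and here the loss of 2 bases was the leading step, with a mean of 35.4% against 23.8% for the loss of 1. These values overlapped between the groups for both parents. For miR-140-3p, best known from cartilage, the parent with the annotated start had a mean of 109% and the one that starts 1 base further in had 8.26%. The first of these had 82.9, 87.9 and 85.0% in NAFLD against 223, 81.4 and 93.2% in normal liver, so that normal 1 alone stood far above the rest. Parent reads of miR-140-3p were fewest in normal 1, at 166 TPM against 308 to 733 TPM in the others.

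Among parents without a RefSeq name, parent 7 had the highest mean trimmed percent, with 184, 142 and 165% in NAFLD against 182, 138 and 138% in normal liver. Its loss of 2 bases exceeded its loss of 1 in 4 of the 6 libraries. parent 34 had 210, 119 and 173% and 142, 98.1 and 202%, and parent 42 had 121, 159 and 128% and 117, 135 and 85.1%. The groups overlapped for all of these. parent 42 was also the one most often shortened by 3 bases, at 26.4, 36.2 and 32.0% in NAFLD against 24.6, 27.3 and 16.8% in normal liver.

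At the other end, miR-132-3p, a CREB-induced miRNA best known from neurons, had almost no trimmed reads. It was read 22873 times over the libraries, yet its forms lacking 1 or 3 bases had 0 reads, which allows up to 0.0131% of the parent, and its form lacking 2 bases had 2 reads, in NAFLD 1 and normal 1. The level of the parent itself differed widely, at 1038, 266 and 45.1 TPM in NAFLD against 142, 74.0 and 388 TPM in normal liver. Of the 539 other reads with its first 18 bases, 418 kept its last 3 bases TCG and differed in between. The most frequent of them lacked a base inside the sequence and had 143 reads.
miR-132-3p, most frequent other tag: taacagtctacagccatgTCG
The next lowest parent, parent 31, had 0.838, 0.562 and 0.751% in NAFLD against 0.612, 0.368 and 0.385% in normal liver. parent 36 had a mean of 1.68%. parent 50, which ends in CCA, had 2.73, 0.709 and 0.949% and 3.45, 0.605 and 2.41%. It was the only parent whose loss of 3 bases was the leading step by mean percent. That step did not lead in NAFLD 2, normal 2 or normal 3. It had 47, 6 and 12 reads in NAFLD and 32, 1 and 9 in normal liver.

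The 11 substitution forms were trimmed much like the sequence they differ from in the libraries where they were frequent. In NAFLD 2, NAFLD 3 and normal 2, their trimmed percent divided by that of the source ranged from 0.819 to 1.07 over 33 comparisons, with a median of 0.987. In the other 3 libraries, where these forms had few reads, it ranged from 0.359 to 2.03 over 15 comparisons, with a median of 1.01 and the lowest value for let-7f-5p with A3G in NAFLD 1. The form of miR-122-5p with G3T had 195, 106 and 93.6% in NAFLD against 181, 94.9 and 191% in normal liver, beside 115, 106 and 97.8% and 123, 100 and 116% for miR-122-5p itself. It was close to its source in the 3 libraries with many substitutions and higher in the other 3, where it had far fewer reads, at 38.4 to 46.3 TPM against 1945 to 2608 TPM. The form with A4C had 92.6, 106 and 96.0% and 135, 96.4 and 235%, with 1.68 to 2.33 TPM in the libraries with few substitutions. The form with G3A A4G had enough parent reads in NAFLD 2, NAFLD 3 and normal 2 only, at 104, 97.1 and 95.1%, and the form of parent 7 with A5C had 144, 160 and 138% there. Substitution forms held 6.40 to 8.54% of all parent reads in those 3 libraries and 0.0627 to 0.0784% in the others.

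The study set NAFLD against normal liver, and summed over the 50 parents the trimmed percent was slightly higher in NAFLD. It was 28.1, 30.5 and 27.7% in NAFLD (28.8 ± 1.52, mean ± SD, n = 3) against 27.6, 25.3 and 27.03% in normal liver (26.6 ± 1.21), without overlap. The difference of 2.15 percentage points exceeded both SDs but depended on the parents counted. Without the 11 substitution forms, a choice made after seeing the data, the values were 28.1, 24.7 and 23.3% and 27.5, 19.0 and 26.9%, which overlapped, and with the 25 named parents alone the difference was -0.204. The median over the 44 parents, in which each counts once, was 22.6, 22.8 and 19.1% in NAFLD against 28.3, 17.3 and 19.6% in normal liver, and these overlapped as well.

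The normal libraries differed more from each other than the groups did. Among the 44 parents, normal 2 was the lowest library for 30 and normal 1 the highest for 21. Outside the 50 parents, the 622 other parents that were tested had median trimmed percents of 75.5, 69.2 and 64.5 in NAFLD against 82.6, 51.4 and 53.8 in normal liver. Here normal 1 was again above all NAFLD libraries, while both normal 2 and normal 3 were below them.

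Each parent was then tested with edgeR's quasi-likelihood test on its trimmed reads, with the parent reads of the same library as offset, over all 666 parents of these libraries with enough reads. Of the 50 parents, 43 entered. The 6 with under 10 reads in some library, all substitution forms, and miR-132-3p with its 2 trimmed reads did not. Among the 43, 0 passed a Benjamini-Hochberg adjusted p of 0.05, beside 0 (0%) of all 666, and edgeR's lowest adjusted p among the members was 0.561. An unadjusted p under 0.05 was reached by 1 of the 43, beside 8.41% (56) of the 666. The fit with DESeq2 called 2 and limma 0 of the 666, none of them a member, with 64 and 63 at an unadjusted p under 0.05. The log2 ratio was above 0 for 27 members and below 0 for 16, with a median of 0.03, beside 0.05 over all parents tested. All 5 substitution forms tested were below 0, and without them 27 members were above 0 and 11 below. All 3 NAFLD libraries lay above all normal libraries for 5 of the 43, beside 10.4% of all, and below them for 2, beside 3.15% of all.
The number of calls depended on the normal libraries. Without normal 1, edgeR called 22 of the 666, and without normal 2 it called 1, with 0 members among them both times.

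The member with the smallest p was miR-101b-3p, a miRNA known to repress Ezh2. Its trimmed forms stood at 113, 124.9 and 124% of the parent in NAFLD against 95.9, 78.8 and 92.2% in normal liver. All NAFLD libraries were above all normal ones, and the means of 121% and 89.0% differed by more than the SDs of 6.62 and 9.01 (n = 3 each). The log2 ratio was 0.44 ± 0.13 (SE), with an unadjusted p of 0.0109 and an adjusted p of 0.561 from edgeR. Over the other fits and left-out libraries the log2 ratio stayed between 0.36 and 0.50 and the adjusted p between 0.113 and 0.918, so the difference did not pass the correction in any of them.
By step, the form of miR-101b-3p lacking 1 G had 42.2, 46.7 and 44.2% against 40.6, 33.6 and 40.0%. The form lacking 2 bases, its leading step, had 63.6, 70.7 and 71.7% against 51.2, 42.1 and 47.5%, with a log2 ratio of 0.55 ± 0.17 and an unadjusted p of 0.0123. The form lacking 3 bases had 7.04, 7.41 and 7.93% against 4.05, 3.11 and 4.67%, with a log2 ratio of 0.92 ± 0.30 and an unadjusted p of 0.0118. The log2 ratio was larger the more bases were lost, from 0.22 at 1 base. Its median over all parents tested rose as well, at -0.007, 0.12 and 0.38 for 1, 2 and 3 bases. The groups of miR-101b-3p were apart at every step. The parent itself was lower in NAFLD, at 972, 658 and 771 TPM against 1272, 977 and 1148.5 TPM, with a log2 difference of -0.50 ± 0.24 and an adjusted p of 0.574 in the edgeR test by total clean reads. The 3 trimmed forms had adjusted p values from edgeR of 0.813, 0.963 and 0.817 by total clean reads, with log2 differences of -0.30, 0.03 and 0.40.

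The other members whose groups did not overlap differed less. Trimmed forms of let-7b-5p, with the values above, had a log2 ratio of 0.12 ± 0.09 and an unadjusted p of 0.209. Against all reads that begin with the let-7b-5p parent they stood at 60.8, 61.4 and 58.8% in NAFLD and 59.1, 51.1 and 64.4% in normal liver, which overlapped, with a log2 ratio of 0.05. Those of the parent shared by miR-103-3p and miR-107-3p, known for their effect on insulin sensitivity, stood at 3.44, 2.95 and 3.14% in NAFLD against 2.57, 2.37 and 2.40% in normal liver, a log2 ratio of 0.38 ± 0.18. This parent is 2 bases shorter than the annotated mature forms, and its trimmed reads were nearly all of the form lacking 1 T. For miR-25-3p, of a cluster inside Mcm7, they stood at 13.8, 11.9 and 12.1% and at 11.5, 7.61 and 10.3%, a log2 ratio of 0.36 ± 0.21. Without normal 2 the ratio of miR-25-3p was 0.21. In these 3 parents NAFLD was higher in every library, but by margins as narrow as 97.4 against 97.0% for let-7b-5p and 11.9 against 11.5% for miR-25-3p.
For miR-21-5p, named after its values were seen, they stood at 85.6, 86.1 and 83.9% and at 82.6, 53.0 and 76.1%, with normal 2 far below the rest, and they overlapped against all reads that begin with the parent. Lower in NAFLD were parent 27, at 32.4, 33.2 and 30.1% and 42.2, 35.3 and 36.7%, and miR-24-3p, also named after its values were seen, at 40.0, 43.5 and 41.4% and 44.4, 45.4 and 46.6%. parent 27 had a log2 ratio of -0.25 ± 0.15 and miR-24-3p one of -0.13. For each parent whose groups did not overlap, a two-sided exact permutation test gave p = 0.1, the smallest that 3 libraries against 3 allow. The other named parents with the smallest p among those lower in NAFLD were miR-140-3p, with -0.64 ± 0.37, and the miR-122-5p form with A4C, with -0.58 ± 0.31, in both of which the groups overlapped. Without normal 1 the ratio of miR-140-3p was -0.03. The form with A4C had only 20 to 27 parent reads in NAFLD 1, normal 1 and normal 3, and its ratio was -0.17 without normal 3 and -0.90 without normal 2.

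Step by step, the ratios were mostly above 0 for the loss of 3 bases, but no step gave a call. For the form lacking 1 base, 0 of 43 members passed the adjusted threshold in edgeR, beside 0% of 612, and 2 of 43 had an unadjusted p under 0.05, beside 7.68%. NAFLD lay above normal without overlap for 5, beside 7.68%, and below for 2, beside 6.05%. The 2 with the small p were the parent shared by miR-103-3p and miR-107-3p and parent 27. For the form lacking 2 bases, 0 of 39 members passed in edgeR, beside 0% of 507, and 2 had an unadjusted p under 0.05, beside 6.31%, namely miR-101b-3p and parent 34. NAFLD lay above normal without overlap for miR-101b-3p alone, beside 8.68%, and below for miR-24-3p alone, beside 2.56%.
For the form lacking 3 bases, 0 of 33 members passed in edgeR, beside 0% of 422, and 2 had an unadjusted p under 0.05, beside 7.35%, namely miR-101b-3p and parent 49. NAFLD lay above normal without overlap for 7, beside 11.1%, and below for parent 27 alone, beside 1.42%. The 7 were let-7f-5p, let-7a-5p, let-7b-5p, miR-29a-3p, miR-101b-3p, miR-21-5p and parent 34. The log2 ratio was above 0 for 27 of the 33, with a median of 0.46, but over all 422 parents the median was 0.38 as well, so the direction was not particular to the abundant parents. DESeq2 called 1 parent for the loss of 1 base, 0 for 2 and 3 for 3, limma called 0 each time, and none was a member.
The 3-base forms were few. Those of let-7f-5p stood at 0.154, 0.132 and 0.135% of the parent in NAFLD against 0.127, 0.0726 and 0.120% in normal liver, a log2 ratio of 0.40 ± 0.30. Those of let-7a-5p stood at 0.191, 0.166 and 0.172% and at 0.156, 0.0794 and 0.144%. Those of miR-21-5p stood at 0.339, 0.327 and 0.356% and at 0.284, 0.120 and 0.137%. In all of them normal 1 came nearest to the NAFLD libraries and normal 2 was the lowest library. Among the normal libraries, this was also the order of their shares of reads of 18 to 20 nt. The order did not hold across the groups. NAFLD 3 had a smaller share than normal 1, at 4.56 against 5.10%, but higher percents of all these forms. The part of the short reads in these values was not tested. Without normal 1, edgeR called 27 of 507 parents for the loss of 2 bases, with 3 members, parent 22, parent 33 and parent 49. For the loss of 3 bases it then called 77 of 422, with 7 members, parent 7, miR-101b-3p, parent 29, parent 33, parent 34, miR-378a-3p and parent 49, at an adjusted p of 0.0425 for miR-101b-3p. These counts rest on leaving out normal 1. It had the most reads of 18 to 20 nt of the normal libraries, but their part in these counts was not tested.

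Measured against total clean reads in place of the parent, 127 trimmed forms had enough reads for a test of their level among 19492 tags. Of these, 0 passed the adjusted threshold in edgeR, beside 0% of all, and 1 had an unadjusted p under 0.05, beside 9.51% (1854) of all. It was parent 22 minus 2 bases, with 393, 52 and 102 reads in NAFLD against 39, 34 and 15 in normal liver, of which NAFLD 1 was far above the rest. The log2 difference was above 0 for 103 of the 127, with a median of 0.47, beside 0.90 over all tags tested, and above 0 for 40 of the 50 parents, with a median of 0.33. Tags of miR-122-5p, which were not among these forms, took fewer of the clean reads in every NAFLD library than in any normal library, as given above, and their part in these levels was not tested. The direction depended on the scaling: with TMM factors the median of the 127 was -0.24 and with DESeq2 size factors -0.33, beside 0.23 and 0.12 over all tags. DESeq2 called 18 tags, with 991 at an unadjusted p under 0.05, and 0 of the called tags were trimmed forms of the 50 parents.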

How the data were processed

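Small RNA from the liver of 3 NAFLD and 3 normal male Wistar rats was sequenced, with 1 library per rat. The authors gel-purified small RNA, ligated adaptors, amplified and sequenced it, removed low-quality reads, adaptor contaminants, poly A reads and inserts under 18 nt, and deposited the count of reads of each remaining tag, not normalized and not filtered for a genome match. The percent column of the deposited log and a second copy of the tags were not used. Genome matching, annotation and qRT-PCR were not analysed here. The parents, groups and lists were chosen with earlier results of these data known.

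TPM was the count divided by total clean reads, per 1000000. Parents were named by RefSeq mature miRNAs (GRCr8) with the same first 18 bases or a start shifted by up to 3 bases. The test of trimmed counts used edgeR 4.0.16 (glmQLFit, glmQLFTest; R 4.3.3) with the log of the parent reads as offset, over parents with a mean of at least 100 reads, at least 10 in every library and at least 30 trimmed reads. Levels were tested on tags with at least 15 reads, by total clean reads. Adjustment was by Benjamini-Hochberg at 0.05. Standard errors are the absolute log2 ratio divided by the square root of F. DESeq2 1.42.0, and limma 3.58.1 with 0.5 added to the counts, were alternatives, and a library was left out in turn. The offset fit was tested on simulated data. Other steps ran in Python 3.11.15 with scipy 1.17.1, numpy 2.4.6 and pandas 2.3.3. Single parents were compared by two-sided exact permutation tests, which cannot go below 0.1. Named are the 10 parents with the highest mean TPM, the 8 with the highest and 5 with the lowest mean trimmed percent and, as fewer than 3 passed in each direction, the 3 with the smallest p. The libraries held 11601058 to 11880695 clean reads, and for forms with few reads counting error can exceed the spread between animals. The limit given for 0 reads covers counting alone, because copies made by PCR are not separate molecules.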

Additional observations from a re-analysis of the deposited data

How the results depend on the processing

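The counts of parents past the adjusted threshold, 0 in edgeR for each step, were 2, 1 and 3 with DESeq2 for the 3 steps summed, the loss of 1 base and the loss of 3. Leaving out 1 library gave 0 to 22 calls for the sum, 0 to 10 for 1 base, 0 to 27 for 2 bases and 0 to 77 for 3, each highest without normal 1. For tag levels DESeq2 gave 18, the substitution rate as covariate 189 (187 higher and 2 lower, 0 of them members), and a minimum of 10 reads per library 1. The pooled difference of 2.15 points was 3.58 without let-7f-5p, 0.763 for the loss of 1 base, 3.83 within NAFLD 2, NAFLD 3 and normal 2, 0.819 within the other 3 libraries, and -0.204 for the named parents alone, and leaving out 1 library gave 1.28 (without NAFLD 2, below the replicate SD of 1.37) to 2.69. Of the log2 ratios of 21 named parents under 14 settings, 276 kept their direction and 15 reversed it. With the substitution rate as covariate, the miR-122-5p form with G3T went to 0.0687 and parent 50 to 0.0652. With reads that begin with the parent as denominator, parent 42 went to -0.55 and let-7i-5p to -0.0032, and let-7b-5p to 0.05 from 0.12. Leaving out 1 library, log2 ratios ranged from -0.12 to 0.14 for let-7f-5p, -0.0774 to 0.15 for let-7a-5p, -0.14 to 0.12 for let-7g-5p, -0.0396 to 0.48 for parent 34, -0.0176 to 0.0489 for let-7i-5p and -0.33 to 0.19 for parent 36. The cause of these changes was not tested. The labels do not state that the replicate numbers pair the animals. The correlations of same-numbered libraries' deviations were 0.283, 0.323 and -0.0265, and those of libraries with different numbers lay between -0.481 and 0.253. With 3 libraries per group, these values cannot show whether the numbers pair animals. With the replicate number as a block, 0 parents were called at each step, and at an unadjusted p under 0.05 the sum gave 90 parents in place of 56.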
